A study of Triticum aestivum with 12 samples.

Results

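Laccase genes of bread wheat were followed in roots and shoots, with and without salt. They were chosen by the description that the deposited comparison tables give a gene, which had to begin with the word Laccase, and 45 of the 83486 genes of the expression table met this. Because those tables list only genes that the authors called between groups, the choice itself used the values of all 4 comparisons. The 45 are therefore the laccases called at least once and not the whole family. Of them, 32 were listed for shoots against roots in control plants, 37 for shoots against roots in salt-treated plants, 11 for salt in roots and 6 for salt in shoots. In all, 43 were listed for an organ comparison, 26 of them for both, and 16 for a salt comparison. Wheat plants (Triticum aestivum, cultivar Najran) received either tap water (control, 0 mM NaCl) or 200 mM NaCl and were grown for 4 weeks after germination. Roots and shoots of each treatment made 4 groups with 3 libraries each, every replicate being a pair of plants. A library therefore averages over plants and over every cell type of an organ, and fewer cells of a type cannot be told apart from less RNA per cell.

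Laccases are blue copper oxidases that plants secrete into the cell wall. They take electrons from phenolic compounds and pass them to oxygen. In Arabidopsis several of them oxidise monolignols, the alcohols that couple into lignin, and lignin stiffens and waterproofs the walls of xylem vessels, fibres and the root endodermis. Wall peroxidases oxidise the same alcohols with hydrogen peroxide, and dirigent proteins steer the coupling of the radicals. Bread wheat is a hexaploid with A, B and D subgenomes, so many genes exist as similar copies (homoeologs) on matching chromosomes. The files describe each member only as a laccase, with no gene name, so no particular substrate or tissue is given here to any of them. Members are named by their identifiers, in which the characters after TraesCS give the chromosome.

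The deposited values are normalized counts, estimated read counts that the authors divided by factors of their normalization. They summed to between 13890189 and 15863307 per root library and between 18565098 and 25371113 per shoot library. The laccases together took 0.0656 to 0.0831% of this total in roots without salt and 0.0847 to 0.0950% in roots with salt. In shoots they took 0.0331 to 0.0358% without salt and 0.0208 to 0.0299% with it. As sums of normalized counts the laccases overlapped in roots, at 10401 to 13003 without and 11903 to 13202 with salt. The totals of the root libraries were 14878135 to 15863307 without and 13890189 to 14183797 with salt. In shoots the sums were 7039 to 9007 and 4056 to 5542. There TraesCS3A02G365300 and TraesCS3B02G397200 went from means of 2001 and 2437 to 962 and 1188. Transcripts of green tissue marked the organs: 117 genes for chlorophyll-binding, photosystem and Rubisco small-subunit proteins summed to 519.9 to 2415 normalized counts in root libraries and at least 841400 in shoot libraries. Salt-treated root replicate 3 stood apart from the other salt-treated roots. Its 419 peroxidase and dirigent genes summed to 156000 normalized counts against 97320 and 92490, and its 40 expansin genes to 6711 against 3566 and 2460. In control roots these sums were 148800 to 161700 and 4558 to 5181, so for the first list replicate 3 lay at the level of control roots. It held the highest value of its group for 22 and the lowest for 16 of the 42 laccases that passed 3 normalized counts in that group. Values that rest on salt-treated root replicate 3 are given with and without it. Control shoot replicate 1 also stood apart from its group. Its total was 25371113 against 20513240 and 21241917, and its 100 highest genes took 30.1% of it against 21.7 and 23.9%. Its green markers summed to 1648000 against 960000 and 1051000.

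The laccases lay on 16 chromosomes. Of the 45, 22 were on the A, 20 on the B and 3 on the D subgenome. The D share was 6.67% of the laccases, 9.33% of the genes listed in any comparison and 25.7% of those in the whole table, each over the wheat identifiers placed on A, B or D. In the libraries, D genes took 2.46 to 2.73% of the normalized counts of control roots and 6.67 to 8.89% of those of control shoots. What sets the D share was not tested. Chromosome group 3 held 15 of the laccases, the most of any group. Members of 9 runs, 19 genes in all, lay within 500000 bp of the next one. The coordinates are those of the deposited tables, on the IWGSC wheat assembly. The closest neighbours were TraesCS3A02G365300 (3A:614676867-614680873, + strand) and TraesCS3A02G365500 (3A:614690072-614692638, + strand), 9198 bp apart. A pair on 3B, 24467 bp apart, was TraesCS3B02G397200 (3B:627712118-627715742, + strand) and TraesCS3B02G397300 (3B:627740210-627742753, + strand). A second pair of runs lay further along both chromosomes, TraesCS3A02G452400 (3A:690784534-690786944, + strand) with TraesCS3A02G452600 (3A:690896266-690898607, + strand), and TraesCS3B02G489700 (3B:736310552-736312833, + strand) with TraesCS3B02G489800 (3B:736324650-736326945, + strand). The run of most members was on 7B, with TraesCS7B02G079800 (7B:89786886-89789329, - strand), TraesCS7B02G079900 (7B:89883846-89891562, - strand) and TraesCS7B02G080100 (7B:89911529-89920395, - strand).

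Of the 45 laccases, chosen as called genes, more were higher in roots than in shoots. In 21 of the 45, all 6 root libraries lay above all 6 shoot libraries, in 8 all shoot libraries lay above all root libraries, and in 16 the organs overlapped. The plot of levels shows these sets as blocks. The share of all genes split this way was not counted, and 43 of the 45 had been listed for an organ comparison. The split therefore describes the 45 laccases only. Of the 45 laccases, 35 passed a filter of at least 10 normalized counts in at least 3 of the 6 libraries of control plants, and 41 passed it in salt-treated plants. A gene was called a DEG at an adjusted p under 0.01 (limma, Benjamini-Hochberg over all genes tested) and a log2 fold change of 1 or more in either direction. In control plants 29 of the 35 tested were DEGs, 19 lower and 10 higher in shoots, where 36.3% of all genes tested were DEGs, 16.7% lower and 19.6% higher. In salt-treated plants 32 of the 41 tested were DEGs, 26 lower and 6 higher in shoots, where 29.8% of all genes tested were, 12.3% lower and 17.4% higher. In control plants organs did not overlap for 21 lower and 10 higher of the 35 laccases tested. Over all genes tested 59.5% did not overlap (30.2% lower, 29.3% higher). In salt-treated plants the laccases were 29 lower and 9 higher of 41, beside 56.5% (27.9% and 28.6%). The median log2 fold change of shoots over roots was -1.51 in control plants and -2.01 in salt-treated plants, against -0.06 and -0.03 over all genes. Scaling every library to the same total moved the medians of all genes to -0.58 and -0.48 and those of the laccases to -2.02 and -2.46. The same scaling raised the share of shoot-lower genes among all DEGs from 45.9 to 61.7% in control and from 41.4 to 57.1% in salt-treated plants. The counts of laccase DEGs were 19, 17 and 18 in control plants without control root replicates 1, 2 and 3, and 17, 21 and 20 in salt-treated plants without salt-treated root replicates 1, 2 and 3, where 27 and 30 laccases passed the filter. Since the laccases were chosen by these contrasts, the counts describe them and support nothing.

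**Figure D1:**
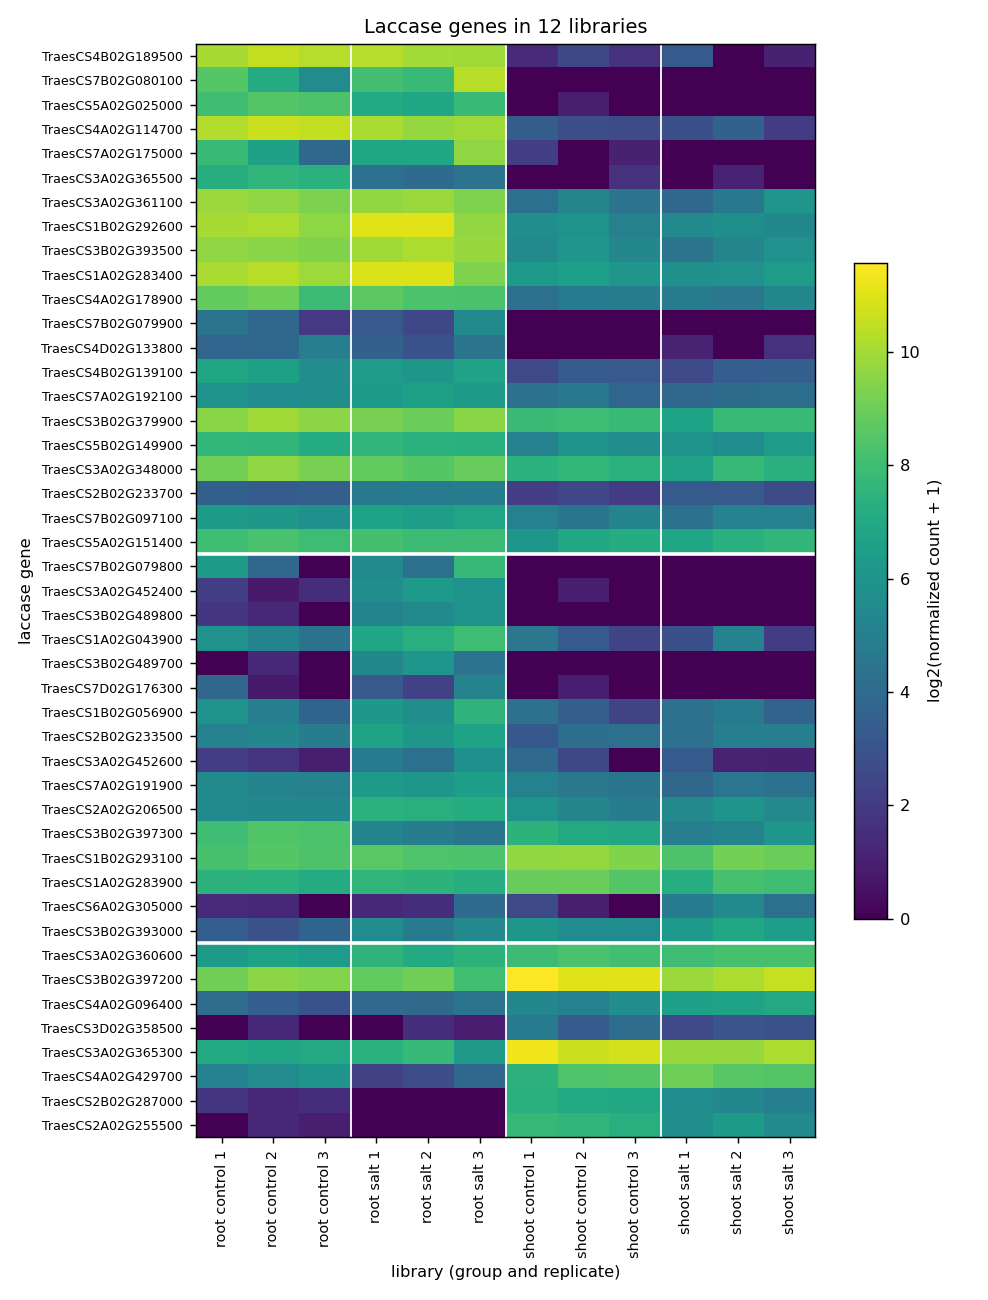
Levels of the 45 laccase genes (rows) in the 12 libraries (columns), as log2(normalized count + 1) on the colour scale. White horizontal lines separate, from the top, the 21 genes whose root libraries all lay above the shoot libraries, the 16 whose organs overlapped and the 8 whose shoot libraries all lay above the root libraries, and colours should be compared along a row, since gene length was not taken into account.

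The root laccases with the largest organ difference were nearly silent in shoots. TraesCS4B02G189500 had 1072, 1449 and 1262 normalized counts in control roots and 1262, 1004 and 983 in salt-treated roots. Its shoots had 1.63, 4.75 and 2.12 without and 8.62, 0 and 1.07 with salt. All its root libraries lay above all its shoot libraries, and its log2 fold change of shoots over roots was -8.44 (SE 0.33) in control and -8.63 (SE 0.76) in salt-treated plants. A gene on 4A with the same pattern, TraesCS4A02G114700, had 1214, 1622 and 1465 normalized counts in control roots, 1114, 865 and 976 in salt-treated roots, 9.76, 5.71 and 5.31 in control shoots and 6.16, 11.1 and 3.20 in shoots given salt. TraesCS5A02G025000 had 263, 361 and 321 in control roots and 135, 113 and 219.9 in salt-treated roots. Its shoots held at most 0.951, so that against a floor of 3 normalized counts its shoots were at least 105-fold lower in control and at least 52-fold lower in salt-treated plants. All its salt-treated roots lay under its control roots, with a log2 fold change of -1.05 (SE 0.28). In all, 10 laccases had no more than 3 normalized counts in any shoot library. They were TraesCS5A02G025000, TraesCS3A02G365500, TraesCS3A02G452400, TraesCS3B02G489700, TraesCS3B02G489800, TraesCS4D02G133800, TraesCS7B02G079800, TraesCS7B02G079900, TraesCS7B02G080100 and TraesCS7D02G176300.

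Other root laccases kept a low level in shoots and came in pairs on matching A and B chromosomes. TraesCS1A02G283400 had 1113, 1286 and 947 normalized counts in control roots against 76.4, 93.2 and 63.7 in control shoots, and TraesCS1B02G292600 had 1063, 1136 and 779.9 against 50.4, 59.9 and 31.9. On chromosome group 3, TraesCS3A02G361100 had 904, 796 and 626 in control roots against 17.9, 38 and 20.2 in control shoots, and TraesCS3B02G393500 had 805, 741 and 674 against 45.5, 64.7 and 40.4. In both pairs every root library lay above every shoot library, by log2 differences of -3.83 to -4.94 in control plants. The pair TraesCS3A02G348000 and TraesCS3B02G379900 differed less between organs, with log2 fold changes of -1.83 (SE 0.19) and -1.77 (SE 0.16) in control plants.

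The shoot laccases were fewer and included 2 pairs on matching A and B chromosomes. TraesCS3A02G365300 had 2596, 1620.0 and 1787 normalized counts in control shoots and 132, 113 and 126 in control roots. TraesCS3B02G397200 had 3055, 2096 and 2160.0 in control shoots and 544, 749 and 695 in control roots. Both were lower in salt-treated shoots, at 873, 893 and 1121 and 901, 1151 and 1512, and still lay above the salt-treated roots, at 168, 215 and 72.4 and 444, 542 and 268. The other pair was near 0 in roots. TraesCS2A02G255500 had 208, 196 and 155 normalized counts in control shoots and 54.2, 78.7 and 44.9 in shoots given salt, while its 6 root libraries held at most 1.55. TraesCS2B02G287000 had 164, 131 and 120.0 in control shoots and 48, 41.8 and 31 in shoots given salt, and its root libraries held at most 2.52. Against a floor of 3 normalized counts, control shoots were at least 62.1-fold higher than control roots for the 2A gene and at least 46.2-fold higher for the 2B gene. A D gene, TraesCS3D02G358500, was also at or under 3 normalized counts in all root libraries, with 25.8, 9.44 and 16.9 in control shoots and 4.89, 7.32 and 6.36 in shoots given salt.

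Organ differences were looked up across treatments, in libraries that had not chosen the gene. The control and the salt-treated plants share no library, although the authors' normalization was made over all 12. Of the 32 laccases listed for control plants, 29 could be tested in salt-treated plants, and 23 were DEGs there, all in the direction in which they had been listed. Among all genes listed for control plants and tested in salt-treated plants, 72.3% were DEGs. In the other direction, 30 of the 37 laccases listed for salt-treated plants could be tested in control plants, and 24 were DEGs in the listed direction, where the share among all listed genes was 82.2%. No laccase was a limma DEG in the opposite direction in either test, and 0 had an unadjusted p under 0.05 in that direction. Laccases near 0 in 1 organ passed the filter only through the other organ. For these an opposite call could not occur, so their direction was fixed by the filter. Such laccases, TraesCS5A02G025000 and TraesCS2A02G255500 among them, are part of the 23 and of the 24. The counts without them are not given, so both counts are a description. Of the 32, 29 had groups that did not overlap in salt-treated plants, in the listed direction, and so had 28 of the 37 in control plants, where the shares among all listed genes were 85.2 and 88.9%. The shares of DEGs among the laccases tested were 79.3 and 80%. The first DEG count was 23 of 29 tested, and 15 of 24 without salt-treated root replicate 1. The second was 24 of 30, and 15, 14 and 14 of 22 without control root replicates 1, 2 and 3. Laccases near 0 in shoots fail the filter when a root library is omitted. TraesCS4A02G114700, listed for control plants, had a log2 fold change of -7.10 (SE 0.38) in salt-treated plants, and TraesCS2A02G255500 one of 5.87 (SE 0.34). Both passed the filter there through the organ in which they were high, so these values are a description. For TraesCS3B02G397300 the order of the organ means turned. Its control roots (248, 344 and 316) lay above its control shoots (177, 129 and 119), while its salt-treated roots (35.9, 28.7 and 21.8) and shoots (29.6, 36.9 and 65.1) overlapped, with a log2 fold change of 0.54 (SE 0.37) (adjusted p = 0.288). Among the 6 not called in salt-treated plants, TraesCS1A02G283900 and TraesCS1B02G293100 went from log2 fold changes of 1.44 and 1.26 in control plants to 0.39 and 0.39 (adjusted p = 0.298 and 0.205).

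**Figure D2:**
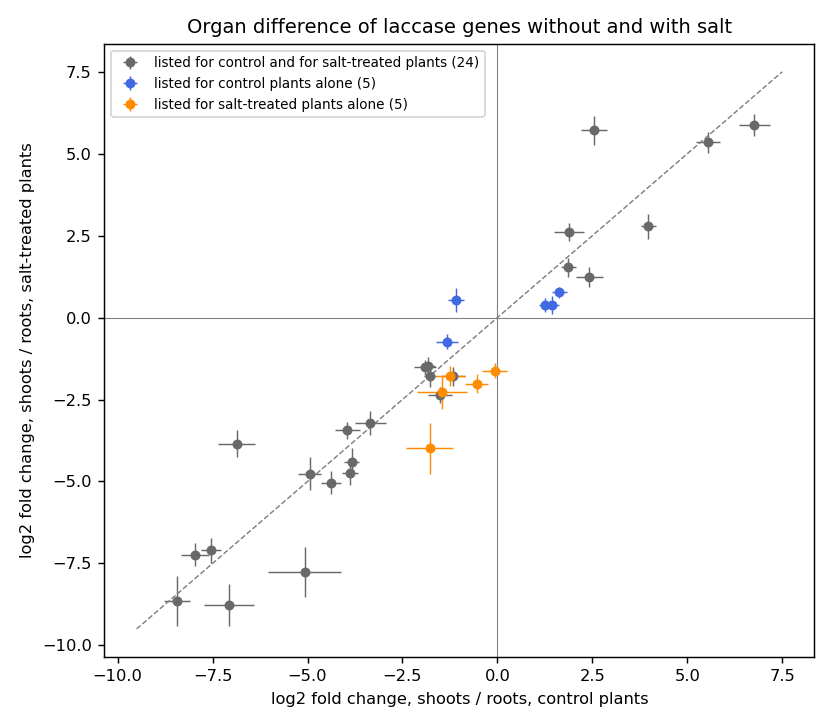
Log2 fold change of shoots over roots in control plants (x axis) and in salt-treated plants (y axis) for the 34 laccases that passed the filter in both, with bars of 1 SE and a dashed line where both are equal. Colours show the comparison a gene was listed for, and points lie in the same quadrant for all but TraesCS3B02G397300, at -1.10 and 0.54.

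In roots, 6 laccases passed the DEG threshold for salt. TraesCS3A02G452400, TraesCS3B02G489700, TraesCS3B02G489800 and TraesCS2A02G206500 were higher and TraesCS3A02G365500 and TraesCS3B02G397300 lower. Of the 45, 40 were tested, so that the DEGs were 4 higher and 2 lower of 40, where 3.47% of all genes tested were DEGs, 1.17% higher and 2.3% lower. The members' median log2 fold change was 0.37 against -0.02 over all genes, and their range was -3.36 to 4.83. With every library scaled to the same total these medians were 0.51 and 0.12. Salt-treated and control roots did not overlap for 14 higher and 8 lower laccases of the 40 tested. Over all genes tested 37.5% did not overlap (17.3% higher, 20.2% lower). The rule used this contrast, so nothing is read from these counts. The count of DEGs was 3 without control root replicate 1 (1 higher, 2 lower) and 0 without control root replicate 2 or 3, where 15 and 19 laccases had an unadjusted p under 0.05. It was 2 of 36 tested without salt-treated root replicate 1 (both lower) and 3 of 36 without replicate 2 (1 higher, 2 lower). Without salt-treated root replicate 3 it was 5 of 35, 1 higher and 4 lower. With any salt-treated root library omitted, TraesCS3A02G452400, TraesCS3B02G489700 and TraesCS3B02G489800 could not pass the filter. The loss of these 3 higher calls therefore follows from the filter. Shares of all genes called with a library omitted are not given, so the lower counts are not read as particular to the laccases.

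The largest upward differences were in the runs TraesCS3A02G452400 to TraesCS3A02G452600 and TraesCS3B02G489700 to TraesCS3B02G489800, whose genes were close to 0 in control roots. TraesCS3A02G452400 had 3.36, 0.777 and 1.87 normalized counts in control roots and 49.7, 77 and 59.4 in salt-treated roots. Its neighbour TraesCS3A02G452600 had 3.36, 2.33 and 0.933 and 26.8, 17.6 and 55.8. TraesCS3B02G489700 had 0, 1.55 and 0 in control roots and 39.7, 67.7 and 20.1 in salt-treated roots, which is at least 14.2-fold higher against a floor of 3 normalized counts. TraesCS3B02G489800 went from 2.52, 1.55 and 0 to 36.7, 43.5 and 58.4, at least 15.4-fold higher. All 12 values of salt-treated roots in these runs lay above all 12 of control roots. In shoots 3 of the genes stayed at or under 0.951 in every library with and without salt, whereas TraesCS3A02G452600 had 14.6, 4.75 and 0 in control shoots and 8.62, 1.23 and 1.07 in shoots given salt. Salt-treated root replicate 3 was the highest of its group for TraesCS3A02G452600 and TraesCS3B02G489800, the lowest for TraesCS3B02G489700 and in between for TraesCS3A02G452400. Without it these genes did not pass the filter, and both remaining salt-treated values lay above every control value in each.

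Other laccases had higher values with salt from a level already present in roots, and of those given here TraesCS2A02G206500 alone was a DEG. TraesCS2A02G206500 had 45.3, 41.2 and 41.1 normalized counts in control roots and 165, 150.3 and 141 in salt-treated roots, a log2 fold change of 1.81 (SE 0.19) that was 1.87 without salt-treated root replicate 3, while its shoots had 60.2, 38 and 28.7 without and 43.1, 62.7 and 42.7 with salt. The groups were far apart in roots and overlapped in shoots. The 2B neighbours TraesCS2B02G233500 and TraesCS2B02G233700 went from means of 34 ± 5.86 and 10.2 ± 0.797 (SD, n = 3) to 91.5 ± 19.3 and 26.1 ± 1.73. TraesCS3B02G393000 went from 10.1, 6.22 and 12.1 to 47.4, 26.9 and 42.8 in roots, and TraesCS7A02G191900 from 46.2, 35 and 31.7 to 74.2, 67.7 and 85.5. TraesCS1A02G043900 had 61.3, 36.5 and 19.6 in control roots and 109, 151 and 250.5 in salt-treated roots, a log2 fold change of 2.15 (SE 0.46) that was 1.83 without salt-treated root replicate 3. The 5 other than TraesCS2A02G206500 did not pass the DEG threshold, with adjusted p of 0.0168 to 0.0365 (limma).

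Both called decreases in roots were in neighbours of shoot laccases. TraesCS3A02G365500 had 147, 197 and 166 normalized counts in control roots and 17.6, 15.8 and 20.1 in salt-treated roots, a log2 fold change of -3.18 (SE 0.23), and at most 2.12 in shoots. TraesCS3B02G397300 had 248, 344 and 316 in control roots and 35.9, 28.7 and 21.8 in salt-treated roots, a log2 fold change of -3.36 (SE 0.25). Their neighbours TraesCS3A02G365300 and TraesCS3B02G397200 were not DEGs for salt in roots. TraesCS3A02G365300 had 132, 113 and 126 in control roots and 168, 215 and 72.4 in salt-treated roots, where the groups overlapped. TraesCS3B02G397200 had 544, 749 and 695 and 444, 542 and 268, a log2 fold change of -0.71 (SE 0.28). TraesCS4A02G429700, listed by the authors but no DEG here (adjusted p = 0.0172, limma), had 33.5, 46.6 and 63.5 in control roots and 3.83, 5.58 and 14 in salt-treated roots, a log2 fold change of -2.60 (SE 0.50). Others without overlap in roots included TraesCS4A02G114700, with values given above and a log2 fold change of -0.54 (SE 0.18), and TraesCS3A02G348000 and TraesCS3B02G379900, with -0.60 (SE 0.20) and -0.46 (SE 0.20), none of them a DEG. In shoots the groups of TraesCS4A02G429700 overlapped, at 172, 337 and 358 without and 513, 383 and 351 with salt. Without salt-treated root replicate 3 the log2 fold changes in roots were -3.27 for TraesCS3A02G365500, -3.18 for TraesCS3B02G397300 and -3.07 for TraesCS4A02G429700. For the last, the difference of the salt responses, shoots minus roots, was 3.17 (SE 0.59) on the log2 scale and is a description, since the gene was listed for salt in roots.

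**Figure D3:**
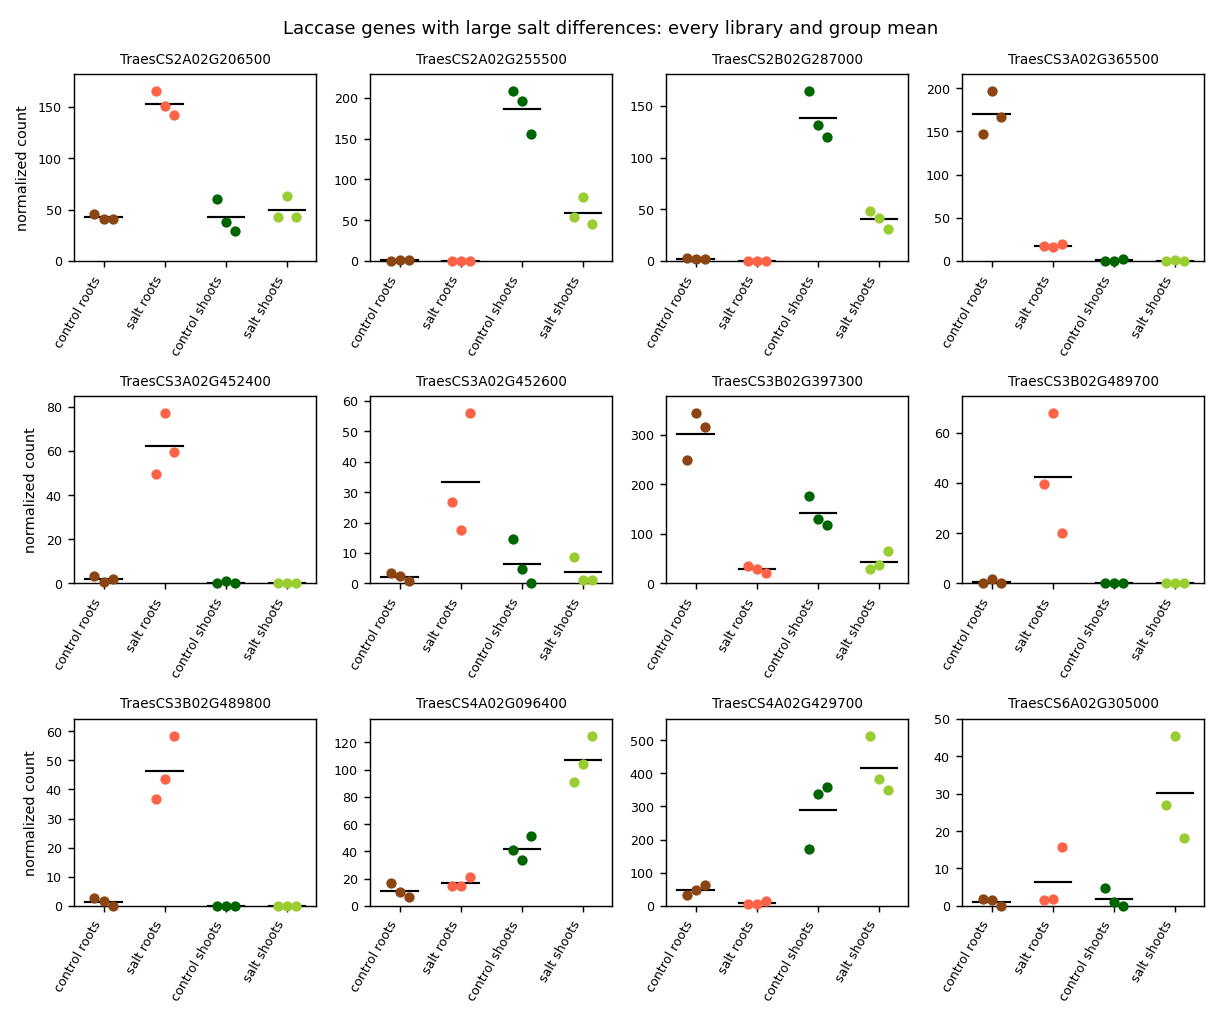
Normalized count in every library (points, replicates 1 to 3 from left to right) with the group mean (line) for 12 laccases, the 9 called in a salt comparison and 3 with a large change, each on its own axis from 0. TraesCS3A02G452400, TraesCS3A02G452600, TraesCS3B02G489700 and TraesCS3B02G489800 stand near 0 in control roots and above it in salt-treated roots, and TraesCS3B02G397300 falls in both organs.

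In shoots, TraesCS2A02G255500, TraesCS2B02G287000 and TraesCS3B02G397300 were called lower and TraesCS4A02G096400 higher with salt. Of the 45 laccases, 27 were tested, and 4 were DEGs, 3 lower and 1 higher in salt-treated shoots, where 5.28% of all genes tested were DEGs, 2.99% lower and 2.3% higher. The median log2 fold change of the laccases was -0.05, against -0.01 over all genes, with a range of -1.77 to 3.70. With every library scaled to the same total the medians were 0.15 and 0.19, the laccase DEGs were 2 higher and 2 lower, and the share of lower genes among all DEGs fell from 56.5 to 39.1%. Groups did not overlap for 4 higher and 8 lower laccases of the 27 tested. Over all genes tested 36.5% did not overlap (16.4% higher, 20.2% lower). The count of DEGs was 1 (higher) without control shoot replicate 1 and 0 without replicates 2 and 3, with 9 and 10 laccases at an unadjusted p under 0.05 where it was 0. It was 1, 2 and 2 without salt-treated shoot replicates 1, 2 and 3, all lower. As for roots, shares of all genes called with a library omitted are not given.

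The 2A and 2B pair that was near 0 in roots was lower in every salt-treated shoot than in every control shoot. From the values given above, TraesCS2A02G255500 had means of 186 ± 27.8 in control shoots and 59.2 ± 17.5 in shoots given salt (SD, n = 3), a log2 fold change of -1.66 (SE 0.25). TraesCS2B02G287000 had means of 138 ± 23 and 40.3 ± 8.63, a log2 fold change of -1.77 (SE 0.24). The group 3 pair had log2 fold changes of -1.03 (SE 0.20) for TraesCS3A02G365300 and -1.05 (SE 0.23) for TraesCS3B02G397200, which did not pass the DEG threshold. Higher values with salt were found in TraesCS4A02G096400, a DEG, and in TraesCS6A02G305000, which was not. TraesCS4A02G096400 had 40.7, 33.3 and 51 in control shoots and 91.1, 104 and 125 in shoots given salt, a log2 fold change of 1.35 (SE 0.25), with overlapping groups in roots (16.8, 10.1 and 6.54 and 14.5, 14.8 and 20.9). TraesCS6A02G305000 had 4.88, 0.95 and 0 in control shoots and 27.1, 45.5 and 18.1 in shoots given salt, a log2 fold change of 3.70 (SE 0.74). In salt-treated roots it reached 15.7 in replicate 3 alone, and its other root libraries held at most 1.85.

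Salt responses of roots were then looked up in shoots, and the reverse, which share no library. Of the 11 laccases listed for roots, 6 could be tested in shoots and 1 was a DEG there, TraesCS3B02G397300, where 18.6% of all genes listed for roots and tested in shoots were DEGs. Of the 6 listed for shoots, 3 could be tested in roots and 1 was a DEG, again TraesCS3B02G397300, where the share over all such genes was 15.1%. This gene had 177, 129 and 119 normalized counts in control shoots and 29.6, 36.9 and 65.1 in shoots given salt, a log2 fold change of -1.73 (SE 0.32) (limma, adjusted p = 0.00969). In roots its log2 fold change was -3.36 (SE 0.25) (adjusted p = 0.00128). The call in shoots lay close to the threshold. Its adjusted p was over 0.01 under 10 of 16 alternatives and reached 0.0358 without control shoot replicate 2, and the root call was lost without control root replicate 2 or 3. TraesCS3B02G393000 and TraesCS2B02G233500, listed for roots, also had shoot groups that did not overlap, with log2 fold changes of 0.76 (SE 0.27) and 0.85 (SE 0.42) (adjusted p = 0.0969 and 0.216). Of the 24 laccases tested in both organs, 2 were higher in both without overlap and 3 lower in both, where 5.84 and 8.6% of all genes tested in both were. Opposite ways without overlap were taken by 0 of the 24, beside 1.38% of all genes that were higher in roots and lower in shoots and 1.17% the reverse.

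**Figure D4:**
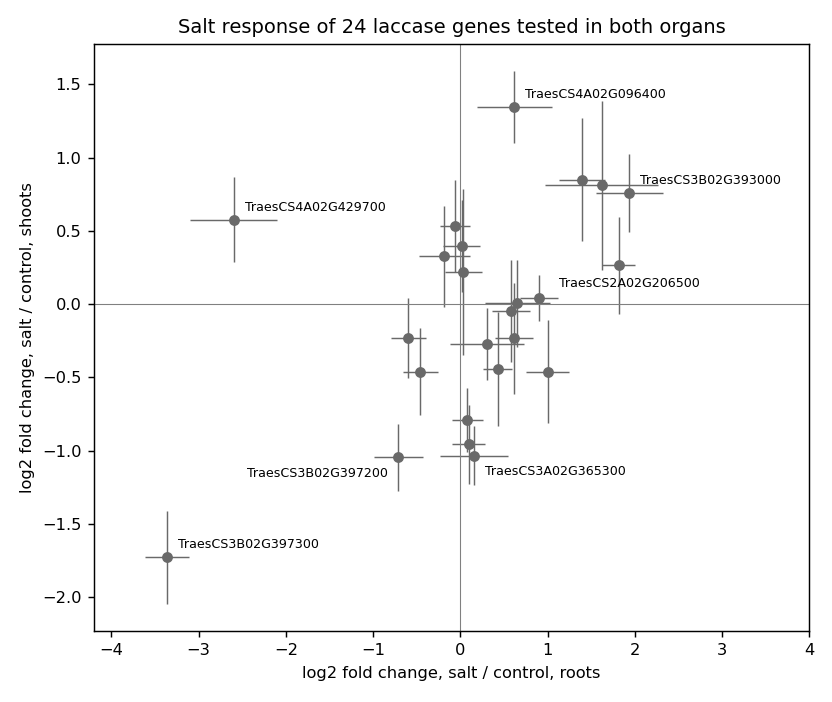
Log2 fold change of salt-treated over control libraries in roots (x axis) and shoots (y axis) for the 24 laccases that passed the filter in both organs, with bars of 1 SE. TraesCS3B02G397300 lies at -3.36 and -1.73, and TraesCS4A02G429700 is lower with salt in roots, at -2.60 and 0.58.

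Some laccases varied more between root libraries of 1 treatment than between treatments. The 7B run and a gene each on 7A and 7D were the clearest case. TraesCS7B02G080100 had 371, 136 and 46.4 normalized counts in control roots and 276, 230.0 and 1297 in salt-treated roots, and 0 in every shoot library. TraesCS7A02G175000 had 224, 98 and 14 in control roots and 112, 112 and 805 in salt-treated roots, TraesCS7B02G079800 78, 14 and 0 and 45.8, 18.5 and 216. TraesCS7B02G079900 and TraesCS7D02G176300 held at most 43.6 and 34.9. In all 5, control root replicate 1 was the highest and replicate 3 the lowest of its group, and salt-treated root replicate 3 was the highest of all root libraries. The log2 fold change of TraesCS7B02G080100 for salt in roots was 1.70 (SE 0.87) and 0.91 without salt-treated root replicate 3, and that of TraesCS7A02G175000 was 1.65 (SE 1.11) and 0.71. The SEs were large, and the groups overlapped for all 5. The peroxidase, dirigent and expansin genes were also highest among salt-treated roots in that library, and in control root replicate 3 the green markers summed to 2415 against 686 and 1298. Their part in these laccases was not tested. The pair TraesCS1A02G283400 and TraesCS1B02G292600 went the other way, with 1978, 1988 and 656 and 2042, 2141 and 836 in salt-treated roots, where replicate 3 was the lowest. Their log2 fold changes were 0.31 (SE 0.42) and 0.65 (SE 0.37), and 0.84 and 1.09 without it. Of 35 laccases tested without that library, 1, TraesCS4B02G139100, changed its sign for salt in roots.

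**Figure D5:**
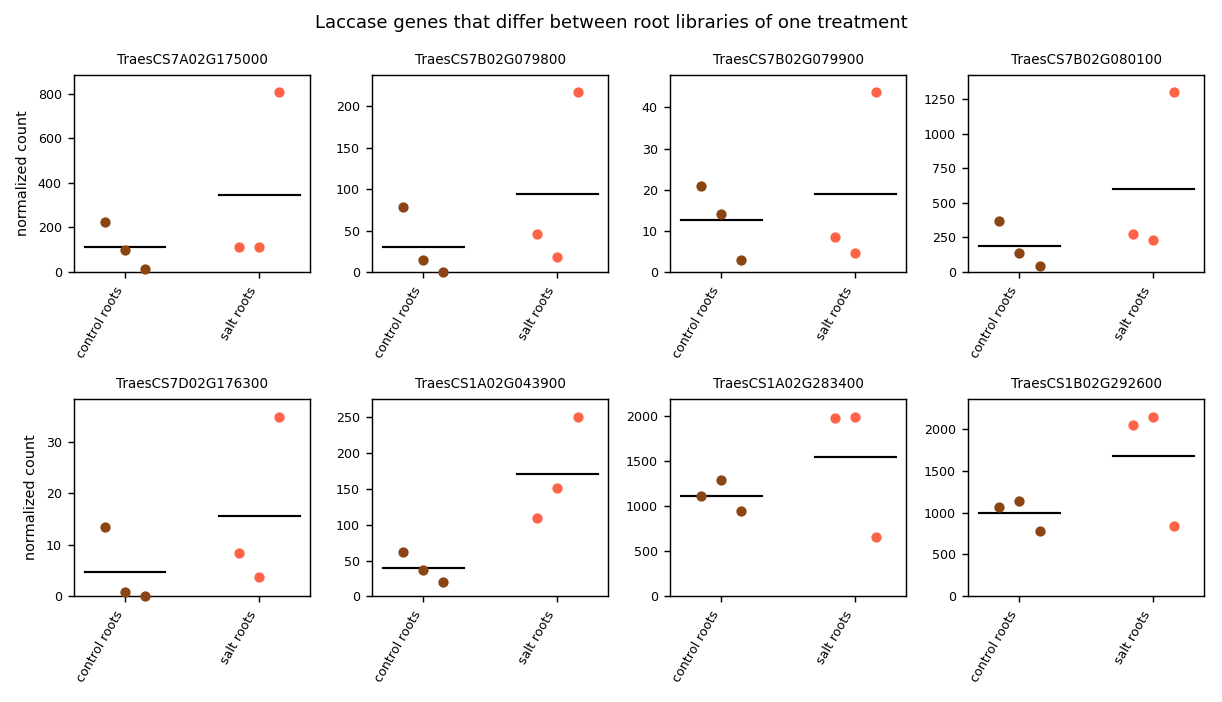
Normalized count in each root library (points, replicates 1 to 3 from left to right) with the group mean (line) for 8 laccases, each on its own axis from 0. In the 5 genes on 7A, 7B and 7D the salt-treated group is led by replicate 3, and in TraesCS1A02G283400 and TraesCS1B02G292600 replicate 3 is the lowest salt-treated value.

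Members that moved together were often on the same chromosome group, which takes in neighbours on 1 chromosome as well as genes on matching chromosomes. Pearson's r of log2(normalized count + 1) was taken over the 12 libraries after subtracting each organ's mean, so it holds the salt response and the spread between replicates. For 26 of the 45 laccases the most similar other laccase lay on the same chromosome group, where 18.4% of all 990 pairs of laccases do. Of 12 pairs that were each other's most similar, 7 were on the same group. They included TraesCS1A02G283900 with TraesCS1B02G293100 (r = 0.95), TraesCS3A02G452400 with TraesCS3B02G489800 (r = 0.95), TraesCS3A02G348000 with TraesCS3B02G379900 (r = 0.92) and TraesCS7B02G079800 with TraesCS7B02G080100 (r = 0.96). The 7B pair are neighbours in 1 run, and the count of 26 does not separate such neighbours from genes on matching chromosomes. Among the pairs on different groups was TraesCS2A02G206500 with TraesCS3B02G393000 (r = 0.92). These points share libraries and depth, and the authors' estimation divides reads among similar copies, so values of near-identical genes may depend on each other.

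The genes around laccases in lignin formation were counted from the same tables, which again hold only genes that the authors called. Of 42 genes for the synthesis of monolignols, 31 were phenylalanine ammonia-lyases, which open it, 7 were 4-coumarate-CoA ligases, 3 cinnamoyl-CoA reductases and 1 a cinnamyl alcohol dehydrogenase. The counts that follow are of DEGs, beside shares over all genes tested of 1.17% higher and 2.3% lower with salt in roots and 2.3% higher and 2.99% lower in shoots. In roots 1 of 42 tested, 2.38%, was a DEG, lower with salt, and in shoots 9 of 40 were, all lower. Their median log2 fold changes were -1.36 and -1.29, beside 0.37 and -0.05 for the laccases. Of the peroxidases, 12 rose and 17 fell of 293 tested in roots, and 3 rose and 19 fell of 145 in shoots. Of the dirigent proteins, 1 rose and 6 fell of 54 in roots, and 1 rose and 3 fell of 44 in shoots. Between organs of control plants, 34 of the 42 pathway genes and 224 of 296 peroxidases were lower in shoots, while 5 and 46 were higher, where 16.7% of all genes tested were lower and 19.6% higher. Of 19 genes for other copper proteins and copper transport, 1 of 13 tested fell in roots, and in shoots 1 of 19 rose and 2 fell. Of 14 genes for cellulose synthases, COBRA and fasciclin-like wall proteins, 1 of 13 tested fell in roots and 0 of 13 were DEGs in shoots by limma, where 3 had an unadjusted p under 0.05. Dividing cells, marked by 26 histone and cyclin genes, had sums of 5377 to 6827 normalized counts in control roots and 2597 to 4399 in salt-treated roots. Of the 23 tested in roots, 0 were DEGs and 7 had an adjusted p under 0.05 (limma). Their sums in shoots overlapped, at 4196 to 5441 without and 4629 to 5497 with salt. The part of dividing cells in the laccase values was not tested.

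The values on both sides of the listing threshold are given with no test, as limma's log2 fold changes. Among the laccases listed for a comparison and tested in it, the smallest change was that of TraesCS7A02G191900 for salt in roots (1.00), TraesCS3B02G397200 for salt in shoots (-1.05), TraesCS3B02G397300 for the organs of control plants (-1.10) and TraesCS3B02G393000 for those of salt-treated plants (1.24). In every comparison but salt in shoots, laccases that were not listed reached larger changes. TraesCS7B02G079800 had 2.46 (SE 1.56) for salt in roots, TraesCS1A02G043900 -1.78 (SE 0.62) for the organs of control plants and TraesCS3A02G452600 -3.12 (SE 0.71) for those of salt-treated plants. For salt in shoots the largest change without a listing was that of TraesCS3A02G365300, -1.03 (SE 0.20).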

How the data were processed

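RNA-seq of 12 libraries was analysed. The authors trimmed the reads with Trimmomatic 0.36, estimated transcript abundance with Salmon 0.12.0 against the Ensembl Plants wheat transcripts, obtained gene values with tximport and used DESeq2 to normalize them. The libraries were not strand-specific, so overlapping antisense transcripts cannot be separated. The deposited values are a signal, an estimated count scaled by factors of the authors that vary among the genes of a library. Whole reads were not recovered from it, no counting interval was given, and precision rests on 3 libraries per group. All library columns were used. From the deposited comparison tables only the listing, the description and the position of a gene were taken. Their fold changes, on the log2 scale, with the authors' standard errors, test statistics and p-values were not used.

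Log2(normalized count + 1) was fitted with limma 3.58.1 (variance trend, Benjamini-Hochberg) in R 4.3.3, separately for each of the 4 comparisons of 6 libraries, after a filter of at least 10 normalized counts in at least 3 libraries. Fold changes on this scale understate those of low genes, and the SE is limma's. The DEG thresholds were 0.01 for the adjusted p and 1 for the size of the log2 fold change. The fit was tested on simulated data. Plots were made with matplotlib 3.10.9 (Python 3.11.15). Samples were grouped by their labels, which number the replicates within each group. Deviations of same-numbered libraries from their group means correlated at 0.13, 0.19 and 0.32 between the organs of control plants. Between those of salt-treated plants they correlated at 0.26, 0.19 and 0.07. The numbers were taken to pair these libraries, but the main fits, with their SEs and counts, did not use the pairing. With the replicate as a block, 31 laccases were DEGs between organs of control plants, all 29 of the fit without it included. In salt-treated plants 30 were, all of them among the 32 of the fit without it.

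Laccases named in the text were the salt DEGs, the 5 largest increases and decreases per comparison among genes without overlap, those at or under 3 normalized counts in all libraries of an organ, and those listed once with the smallest change. Further laccases named were chosen after their values were seen. The members and all gene lists were chosen with earlier results of these data known. Of the laccase identifiers, 0 matched the RefSeq annotation at hand, so sequences and gene lengths were not used here and levels were compared within a gene only. Alternatives were other thresholds, pseudocounts, filters and scalings, a fit of all libraries, a replicate block and the omission of each library.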

Additional observations from a re-analysis of the deposited data

How the results depend on the processing

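The counts of laccase DEGs for salt changed with the settings and with the libraries used. In roots the 6 of 40 tested became 14 at an adjusted p threshold of 0.05. They became 3 of 30 with a mean normalized count of at least 50 and 2 of 40 with the replicate block, both lower. In shoots the 4 of 27 became 7, 2 of 16 and 2, and 2 in the fit of all 12 libraries. Shares over all genes are not given under these settings or with a library omitted. The counts are therefore a description, and their changes are not read as particular to the laccases. Omitting each library gave 0 to 5 in roots, 0 to 2 in shoots, 17 to 26 of 29 between organs of control plants and 17 to 28 of 32 in salt-treated plants, where a mean of at least 50 left 21. Genes near 0 in 1 of the 2 groups compared drop out of the filter when a library of the other group is omitted. The same-numbered libraries correlated at 0.02, 0.10 and -0.01 for salt in roots and at 0.04, 0.05 and 0.01 in shoots, so they share a number only. The block changed no organ count by over 1.5 times.

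Of the laccases listed for control plants, 15 to 20 were DEGs in salt-treated plants with each library omitted (23 with all), where 24 to 27 could be tested. Of those listed for salt-treated plants, 14 to 22 were DEGs in control plants (24 with all), where 22 to 28 could be tested. For the laccases listed for salt in roots, the 1 DEG in shoots became 0 with a pseudocount of 0.1, a mean of at least 50, scaling to the same total, a shift to the same median and the replicate block, where 2 had an unadjusted p under 0.05 each time in limma. Omitting each library gave 0 to 1, as it did for those listed for shoots and tested in roots.

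The median log2 fold change of the laccases in roots, 0.37, was 0.13 with a mean of at least 50, 0.51 with scaling to the same total and 0.040 to 0.49 with each library omitted. In shoots, -0.05 became -0.37 with a mean of at least 50 and -0.29 to 0.05 with each library omitted. Between organs of control plants, -1.51 became -1.17 with a pseudocount of 10, -1.25 without a filter, -1.86 with a mean of at least 50, -2.02 with the same total, -1.71 with the same median and -1.76 to -1.06 with each library omitted. In salt-treated plants, -2.01 became -1.61 with a pseudocount of 10, -2.46 with the same total and -2.38 to -1.50 with each library omitted. Causes of these shifts were not tested.

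Of the named laccases' values under alternatives, 1053 kept direction and call, 76 lost a call, 31 gained one and 6 changed sign. For salt in roots, with each library omitted, TraesCS1B02G293100 ranged from -0.015 to 0.17 (main value 0.08; negative without control root replicate 1, -0.006, or salt-treated root replicate 1), TraesCS3A02G365300 from -0.16 to 0.62 (negative without salt-treated root replicate 2) and TraesCS7B02G079900 from -0.45 to 0.93 (negative without control root replicate 3). Between organs, TraesCS2A02G206500 ranged from -0.35 to 0.17 in control plants (positive without control shoot replicate 3), and TraesCS1B02G293100 was -0.070 in salt-treated plants with the same total.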
